A study of Nothobranchius furzeri with 25 samples.

Results

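The contigs described here had their lowest mean level, on a log2 scale, at 39 weeks, the oldest age sampled in the brain of the turquoise killifish, Nothobranchius furzeri. A contig is an assembled transcript sequence that stands for a gene. Members were chosen on the measured values: counts were divided by the library total to give CPM (counts scaled to the same library total), log2(CPM + 0.5) was averaged per age, and contigs were ranked by how far the 39-week mean lay below the lowest of the means at 5, 12, 20 and 27 weeks. The 150 contigs of largest difference were taken from 11541 that carried a zebrafish identifier, had an identifier number above 2400 and reached a mean of at least 5 CPM, out of 18228 contigs in all. Every difference between 39 weeks and an earlier age is therefore a description of these contigs, and a call in such a comparison is no evidence for them.

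RNA was sequenced from whole brains of male fish of the wild-derived strain MZM-04/10, each fish giving 1 of the 25 libraries, and 5 fish were taken per age (5, 12, 20, 27 and 39 weeks). No treatment is named, and age is the only named condition that differs between the groups. The library numbers in the titles also run in separate blocks by age, with the lowest numbers at 39 weeks. Anything that followed that order cannot be told apart from age. Animals were sampled once, so that each age is a different set of fish and the 39-week fish are those that lived to that age. In a whole brain, fewer cells of a type and less RNA per cell cannot be told apart. Library totals were 15690560 to 26378519 counts, and those of 39 weeks 15877033 to 23985244. Of the 25 libraries, 6 carried the mark w0w1 in their titles, whose meaning the labels do not give, with 1 at 39 weeks (JM12) and 5 at earlier ages.

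The killifish is among the shortest-lived vertebrates kept in the laboratory, and its brain, like that of other teleosts, keeps stem cells that divide in adult life. The activity of these stem cells declines as the fish grows, so that many transcripts of dividing cells are high in young fish and lower long before old age. A set of transcripts that stayed level through adult life and dropped in the last weeks would have another time course, and the contigs were chosen with that course in view.

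Of the 150 members, 1 had a gene name in the sources used here. This was mex3a (contig Nofu_gene_3_0010637, zebrafish identifier ENSDARG00000076638), ranked 14 by the size of the difference. Mex3a belongs to a family of RNA-binding proteins with KH domains, which in mammals is tied to undifferentiated and stem cells. The other members are called here by their rank. The files place no contig on a chromosome. The study also designed oligonucleotides for MEX3A, and they are shown because this is the only member with a name here.
MEX3A forward primer: ctgcaagggaagagcaagtt
MEX3A reverse primer: cctcgtaccggagttttgat
site of the reverse primer: atcaaaactccggtacgagg
Both primers are 20 bases long and were meant for quantitative PCR. The third line is the stretch that the reverse primer binds, found at bases 125 to 144 of the study's 745-base in situ hybridization probe, counted from its 5′ end. The forward primer has no match in that probe. The sources link neither the primers nor the probe to the contig counted here.

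In mex3a, the level was 66.0, 51.6, 40.6, 61.5 and 58.1 CPM in the 5 brains of 5 weeks and 30.9, 23.7, 17.0, 32.1 and 21.6 CPM in those of 12 weeks. The 20-week brains had 11.2, 14.2, 20.2, 23.1 and 14.2 CPM, the 27-week brains 15.0, 28.2, 16.5, 12.1 and 12.3 CPM, and the oldest 7.75, 6.31, 14.5, 7.28 and 12.4 CPM. The youngest brains stood above all others, the 3 middle ages overlapped, and 3 of the 5 oldest brains lay below every earlier one. The remaining 39-week brains, JM13 at 14.5 CPM and JM18 at 12.4 CPM, overlapped 20 and 27 weeks. In order of age the means were 55.6 ± 9.89, 25.1 ± 6.39, 16.6 ± 4.90, 16.8 ± 6.61 and 9.65 ± 3.58 CPM (SD, n = 5). Between 5 and 12 weeks mex3a fell by 1.11 on the log2 scale (standard error 0.24, adjusted p = 0.002, edgeR's quasi-likelihood test with Benjamini-Hochberg adjustment). From 27 to 39 weeks its fitted difference was -0.77 (standard error 0.25). The drop of this contig was thus not confined to the last age. A second contig with the same zebrafish identifier, which was not its best bidirectional hit, had 1.78 to 4.44 CPM over all libraries, with 2.94 ± 0.731 at 27 weeks and 2.85 ± 0.806 at 39 weeks.

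The difference that ranked the members ranged from 3.27 down to 0.438 log2 units, with a median of 0.52. It was at least 1 in 7 members and under 0.6 in 108. For all 11541 eligible contigs the median was -0.14, and 3052 of them (26.4%) had a value above 0. The last 3 members inside the limit had 0.439, 0.439 and 0.438, and the first 3 contigs outside it 0.437, 0.437 and 0.436, so the limit falls in a run of nearly equal values.

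The course before 39 weeks differed from member to member. The highest of the 4 earlier means was that of 5 weeks in 81 members, of 12 weeks in 41, of 20 weeks in 4 and of 27 weeks in 24. Means went down at each step from 5 to 27 weeks in 34 members. The earlier means spread over less than 0.25 log2 units in 39 members and over more than 1 unit in 33. In 95 members this spread was smaller than the difference at 39 weeks, and in the others it was equal or larger. The median spread was 0.39 in the members and 0.31 in all eligible contigs. A drop at 39 weeks alone therefore describes the means of part of the members. In the rest the earlier means differed by as much or more, and each mean carries the spread between 5 brains.

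**Figure D1:**
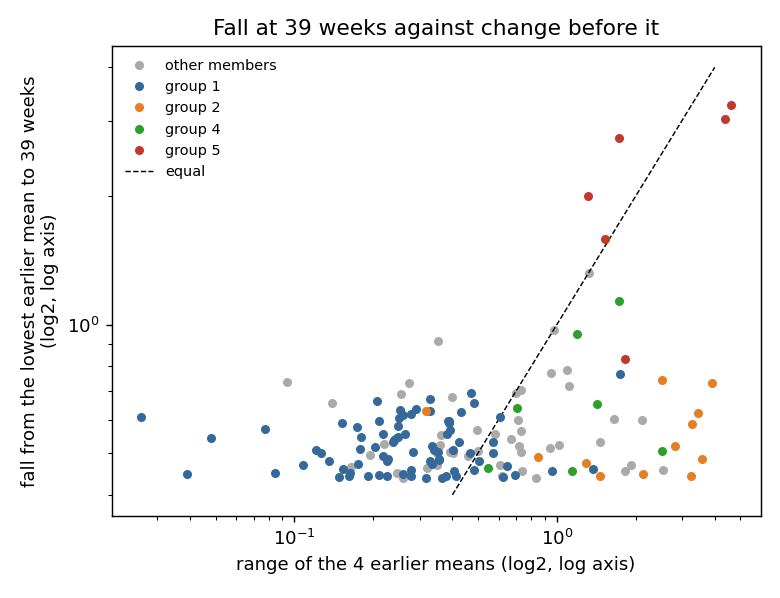
Each point is 1 of the 150 members; the x axis gives the range of its 4 earlier means and the y axis its difference between the lowest earlier mean and 39 weeks, both in log2 units on log axes, and the dashed line marks equal values. The 95 members above the line changed less before 39 weeks than at 39 weeks, and most contigs of group 2 lie to its right.

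Comparisons among the 4 earlier ages were tested with edgeR over 16484 contigs, in 1 model of all libraries. The rule touched these means through their minimum, which disfavours a contig with 1 low early age. Between 5 and 12 weeks 25 members (16.7%) were lower at 12 weeks and 0 higher, against 13% of all contigs tested lower and 10.8% higher. From 5 to 20 weeks 41 members (27.3%) were lower and 0 higher, against 16.6% and 15.4%. From 5 to 27 weeks 43 (28.7%) were lower and 1 was higher, against 18.7% and 16.9%. Among 12, 20 and 27 weeks edgeR called 0 members in either direction, at an adjusted p under 0.05. Of all contigs, 0.00607% were lower and 0.0485% higher at 20 than at 12 weeks, 0.0243% lower and 0.00607% higher at 27 than at 12 weeks, and 0% at 27 against 20 weeks. Unadjusted p values of edgeR were under 0.05 for 11, 20 and 2 of the 150 members in these 3 steps. The same held for 1646, 1944 and 1619 of the 16484 contigs tested. DESeq2 called 1 member, lower at 27 than at 12 weeks, from which nothing is read.

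The differences at 39 weeks came from the contrasts that chose the members, and their calls, like the shares of all contigs printed beside them, are given for size only and test nothing about the members. EdgeR called 117 members lower at 39 than at 5 weeks (18.7% of all contigs were) and 100 lower than at 12 weeks (6.8%). It called 7 lower than at 20 weeks (0.218%) and 16 lower than at 27 weeks (0.528%). Against 20 and 27 weeks DESeq2 called 41 and 59 (2.19% and 3.09% of the contigs it tested). EdgeR called 4 members against all 4 earlier ages and 22 against none. These 2 counts were not taken over all contigs, so nothing is read from them. Fitted differences had a median over the members of -0.77, -0.80, -0.57 and -0.61 log2 units against 5, 12, 20 and 27 weeks, where the median of all contigs was 0.01, 0.01, 0.00 and 0.00. The 4 comparisons share the 39-week libraries.

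Counts against 20 and 27 weeks moved when single brains were left out, also brains of an age outside the comparison. The share of all contigs called without those brains was not set beside these counts. The shifts are therefore not read as a trait of the members. Apart from rank 12, the members edgeR called against 27 weeks had adjusted p values of 0.039 to 0.048. The count against 27 weeks thus sits near the limit of 0.05. Without 39 weeks replicate JM13, 68 members were called against 27 weeks and 20 against 20 weeks, and without 39 weeks replicate JM1, 1 and 0. Without 27 weeks replicate JM72 the count against 27 weeks was 51, and without the 6 libraries marked w0w1 it was 4, with 0 against 20 weeks. The count against 27 weeks was also 1 without 5 weeks replicate JM101, without 12 weeks replicate JM105, without 27 weeks replicates JM52, JM62 or JM66, and without 39 weeks replicate JM15, and it was 3 to 10 without JM96, JM97, JM100, JM109, JM113, JM82, JM84, JM69 or JM12. Against 20 weeks it was 15 without 20 weeks replicate JM75 and 0 without 20 weeks replicate JM84 or 39 weeks replicate JM15. Against 12 weeks, 62 to 65 members were called without JM1, JM15 or JM104, and 43 without the marked libraries.

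The 5 brains of 39 weeks were not equally low. Per library, the median over members of log2(CPM + 0.5) minus the mean of the 20 earlier libraries was -0.98 in JM1, -0.89 in JM12, -0.86 in JM15, -0.57 in JM18 and -0.33 in JM13. In earlier libraries it ranged from -0.37 to 0.34, and over all eligible contigs from -0.05 to 0.04. JM13 thus overlapped 2 of the 27-week brains, JM69 at -0.37 and JM72 at -0.34, and the other 4 lay below every earlier library. JM1 was the lowest of the 5 in 55 members, and JM13 the highest in 91. All 150 members lay below their mean of earlier libraries in JM1, 149 in JM15, 147 in JM18, 142 in JM12 and 134 in JM13, against 13 to 122 in an earlier library. Among libraries with the w0w1 mark, the single 39-week brain had -0.89 and the 5 earlier ones -0.37 to 0.32. Among those without it, the 4 brains of 39 weeks had -0.98 to -0.33 and the 15 earlier ones -0.34 to 0.34.

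**Figure D2:**
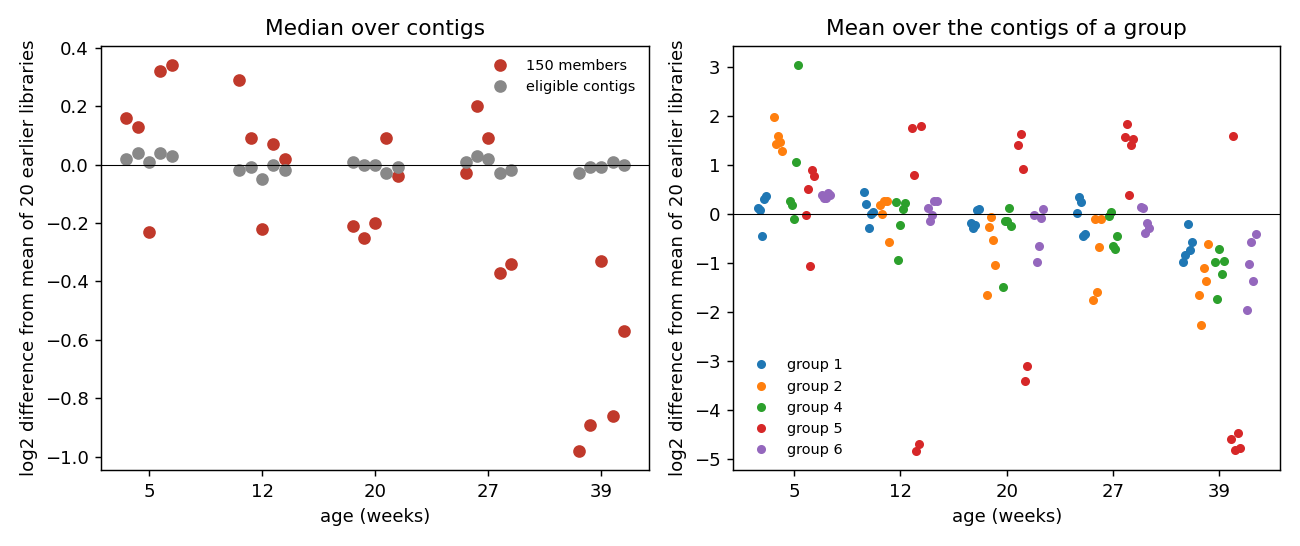
Points are libraries, placed by age on the x axis; the y axis gives the log2 difference from the mean of the 20 earlier libraries, as the median over contigs on the left and as the mean over a covariation group on the right. At 39 weeks the members' medians sit between -0.98 and -0.33 while the eligible contigs stay near 0, and group 5 lies below -3 in 8 libraries.

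Each library was also left out in turn, 150 contigs were chosen from the remaining 24, and those contigs were read in the library left out. Only the left-out value is independent of the choice, since the earlier means it is set against took part in it, which does not hold for the eligible contigs given beside. In JM15 143 of the 150 (95.3%) lay below their lowest earlier mean, in JM1 138 (92%), in JM12 128 (85.3%), in JM18 107 (71.3%) and in JM13 89 (59.3%). Among all eligible contigs the share below the lowest earlier mean was 23% to 36.6% in the same libraries. The left-out brain differed from that mean by a median of -0.61 in JM1, -0.58 in JM12, -0.51 in JM15, -0.20 in JM18 and -0.08 in JM13. In the 39-week brains that did the choosing, the same contigs differed by -0.48 in the case of JM1, -0.48 for JM12, -0.52 for JM15, -0.59 for JM18 and -0.63 for JM13. The medians of JM1, JM12 and JM15 lay below those of every earlier library left out in the same way, which were -0.24 to 0.54, and the medians of JM18 and JM13 lay within that range.

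Earlier libraries left out in the same way had 5 to 109 of 150 contigs (3.33% to 72.7%) below the lowest earlier mean. The highest shares among them were 72.7% in JM72 and 66.7% in JM69 of 27 weeks, and 70% in JM75, 66% in JM79 and 60% in JM82 of 20 weeks. These 5 stood above JM13, and JM72 above JM18. Their median differences were -0.24 to -0.05, against 0.08 to 0.46 in the other brains of these ages. Between 117 and 127 of the original 150 were chosen again when a 39-week brain was left out, and 69 were chosen in all 5 of these cases.

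**Figure D3:**
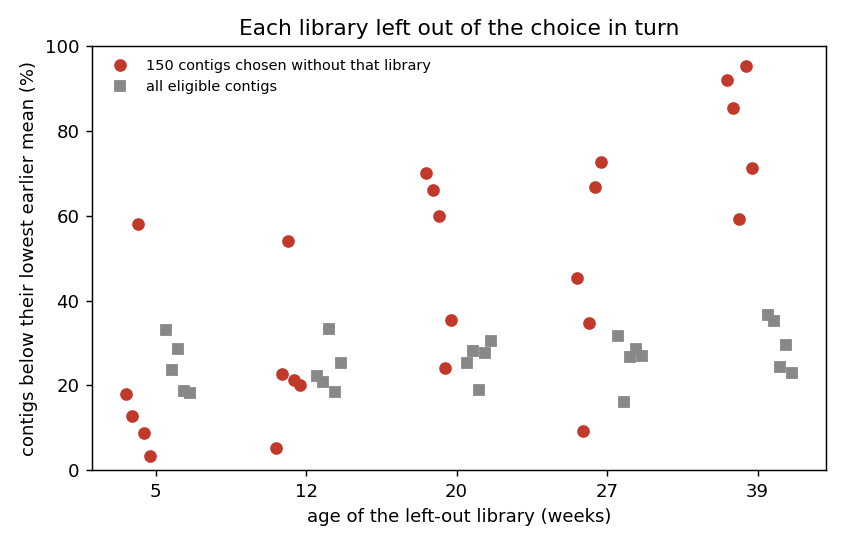
Each library was left out of the choice in turn; the x axis gives its age in weeks and the y axis the percent of contigs that lay, in that library, below their lowest earlier mean, for the 150 contigs chosen without it and for all eligible contigs. The chosen contigs reach 59.3% to 95.3% in 39-week brains, and up to 72.7% in brains of 27 weeks.

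Single members overlapped between ages in nearly all cases. In 2 of 150 members all 5 values at 39 weeks lay below all 20 earlier values, and the same held for 9 of the 11541 eligible contigs (0.078%), the 2 members included. At least 3 of the 5 did so in 67 members, and 0 of 5 in 16. In 134 members all 5 values were below the mean of the 20 earlier libraries. A share over eligible contigs was taken for the first of these counts only, so the others describe the members alone.

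The contig ranked 55 was 1 of the 2 that did not overlap. It had 7.56, 7.55, 8.03, 6.74 and 8.38 CPM at 39 weeks and a range of 8.63 to 17.1 CPM in the 20 earlier brains, with means of 15.4 ± 2.27, 13.4 ± 1.70, 11.6 ± 1.53 and 12.0 ± 2.90 from 5 to 27 weeks (SD, n = 5). The gap to the lowest earlier brain, JM72 of 27 weeks, was small. Its fitted difference was -0.62 (standard error 0.14) against 27 weeks and -0.97 (standard error 0.14) against 5 weeks. The contig ranked 70 had 12.5, 12.3, 15.7, 11.7 and 14.7 CPM at 39 weeks and 16 to 36.6 CPM before, with means of 29.9 ± 6.89, 27.3 ± 5.04, 22.4 ± 4.54 and 19.8 ± 4.12. Here the mean was lower at each age than at the age before it.

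The contigs ranked 38, 46, 96 and 131 are shown because edgeR called them against all 4 earlier ages. Those calls come from the contrasts that chose the members, and the 4 were picked after their values were seen. Their values are a description and no evidence for them. The contig ranked 38 had 13.4, 14.4, 18.9, 11.2 and 13.3 CPM at 39 weeks, and its earlier means were level, at 26.3 ± 3.39, 23.1 ± 1.07, 26 ± 4.85 and 22.2 ± 4.70 CPM. Its fitted differences were -0.85, -0.70, -0.86 and -0.62 log2 units against 5, 12, 20 and 27 weeks, each with a standard error of 0.15. In JM13, at 18.9 CPM, it overlapped 27-week brains JM69 at 18.6 and JM72 at 16 CPM. The contig ranked 131 was the most even of the 4 before 39 weeks, with 72.1 ± 3.07, 70.9 ± 5.85, 73.1 ± 8.79 and 72.2 ± 11.9 CPM, and had 52.1 ± 6.93 at 39 weeks. Only 39-week brain JM13, at 60.2 CPM, overlapped an earlier one, JM69 at 58.4 CPM. Its fitted differences were -0.43 to -0.48 log2 units. Rank 46 had 32.6 ± 5.01 CPM at 5, 25.1 ± 5.44 at 27 and 16.2 ± 2.08 at 39 weeks, and rank 96 had 147 ± 10.8, 108 ± 14.2 and 76.8 ± 13 CPM. JM13 overlapped 27 weeks in both. It had 19.4 CPM against 19.2 in JM69 and 19.1 in JM72 for rank 46, and 90.5 against 89.8 in JM72 for rank 96.

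**Figure D4:**
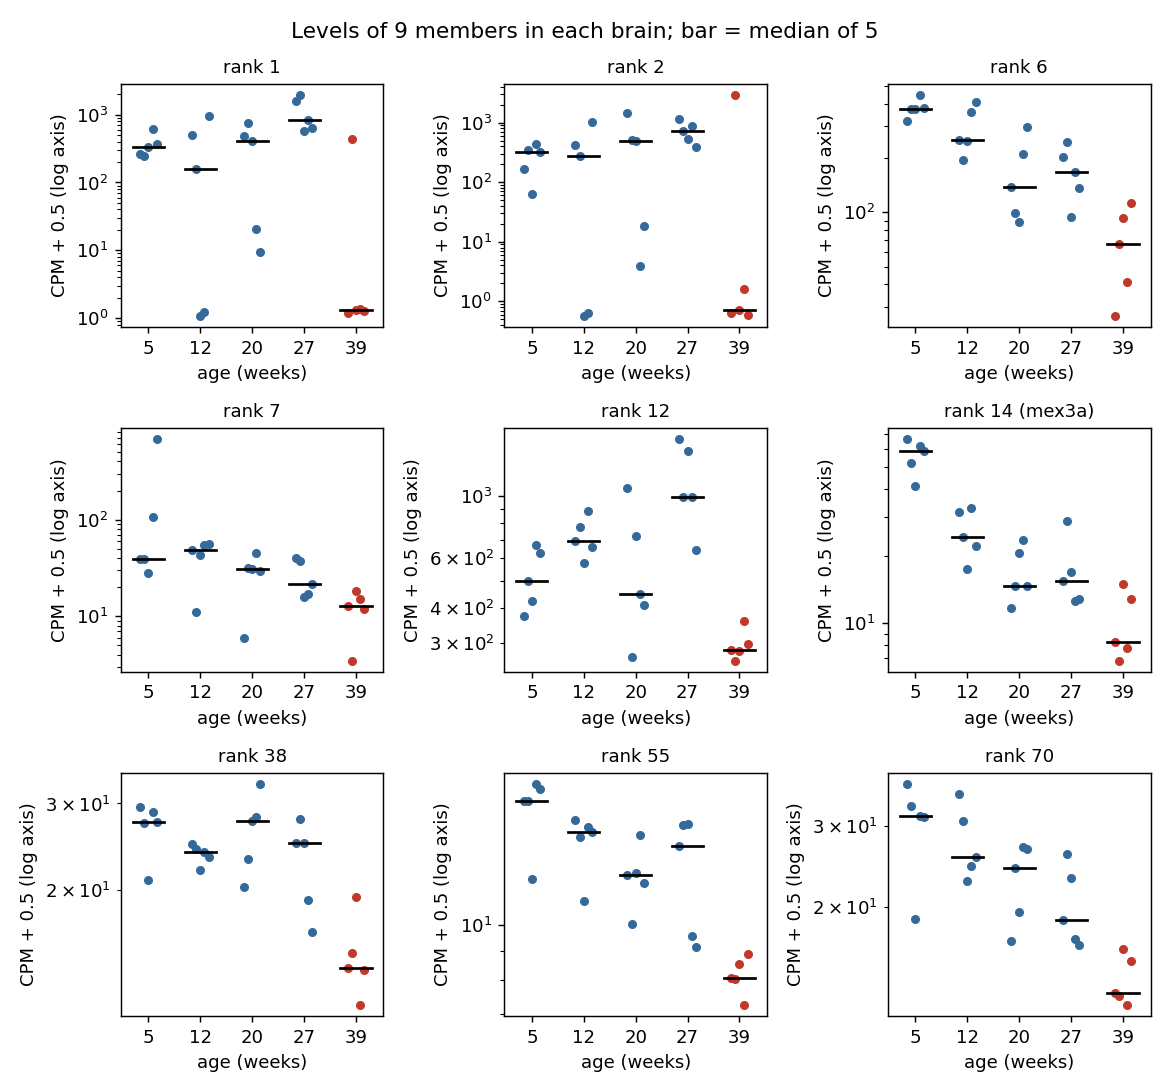
Each panel shows 1 member in all 25 brains, with age in weeks on the x axis and CPM + 0.5 on a log y axis; points are brains, red at 39 weeks, and bars are medians of 5. Ranks 55 and 70 do not overlap earlier ages, rank 38 is level until 27 weeks, mex3a is highest at 5 weeks, and ranks 1 and 2 are near 0 in some brains of 12 and 39 weeks but high in JM12.

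Members were grouped by how they varied between brains of the same age. After each age mean was subtracted, Pearson's r over the 25 libraries had a median of 0.27 across the 11175 pairs of members, was above 0.8 in 797 pairs and below 0 in 2666. The values share library and depth. Average linkage at r = 0.5 gave 7 groups of at least 4 members that held 119, and 31 were in none.

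Group 1 held 78 members, mex3a among them, and its median r within the group was 0.70. Its mean log2(CPM + 0.5) was 5.12, 5.12, 4.93 and 4.98 at 5, 12, 20 and 27 weeks and 4.37 at 39 weeks, so this group came closest to a level course with a drop at the end. Per brain of 39 weeks it differed from the earlier mean by -0.98 in JM1, -0.85 in JM12, -0.75 in JM15, -0.57 in JM18 and -0.20 in JM13. Earlier brains ranged from -0.46 to 0.44, the lowest being JM103 of 5 weeks and JM69 of 27 weeks at -0.46 each, and JM13 lay inside that range. Between 5 weeks and 12, 20 and 27 weeks, 2, 8 and 9 of the 78 were lower by edgeR, against 13%, 16.6% and 18.7% of all contigs tested.

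Groups 2 and 7 had most of their change before 39 weeks. The 12 members of group 2 had a mean of 5.57 log2 units at 5 weeks, 4.05 at 12, 3.32 at 20, 3.18 at 27 and 2.62 at 39 weeks. By edgeR 7 of the 12 were lower at 12 than at 5 weeks and 10 lower at 27 than at 5 weeks, against 13% and 18.7% of all contigs tested. The 4 members of group 7 had 4.98 at 5 weeks, 3.28 at 12 and 2.39 at 39 weeks. All 4 were lower at 12 than at 5 weeks, against the same 13% of all contigs. In group 3, with 8 members, the mean was 4.63 at 5 weeks, 3.94 at 27 weeks and 3.29 at 39 weeks.

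Group 4, with 7 members, stood out in 5-week brain JM97, where its mean lay 3.03 log2 units above the earlier mean, against -0.11 to 1.06 in the other brains of that age. The contig ranked 7 had 680 CPM in JM97, 105 in JM96 and 27.6 to 38.3 in the other 3 brains of 5 weeks. At 12 weeks it had 10.7 CPM in JM105 and 42.4 to 55.3 in the others, at 20 weeks 5.41 in JM75 and 28.7 to 44.5 in the others, and at 27 weeks 15.5 to 39.4. At 39 weeks it had 12.2, 2.97, 17.8, 14.5 and 11.5 CPM. The oldest brains overlapped the lowest brains of 12, 20 and 27 weeks. The contig ranked 9 had 58.2 CPM in JM97, 12.6 in JM96 and 1.08 to 2.30 in the others of 5 weeks, 0.364 to 6.60 from 12 to 27 weeks, and 0.309 to 1.46 at 39 weeks. Of the 7, 3 were the best bidirectional hit of their zebrafish identifier, and neither rank 7 nor rank 9 was.

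Group 5 held ranks 1 to 5 and 11, 6 contigs with the 5 largest differences of all, and its level differed widely from brain to brain. Rank 1 (contig Nofu_gene_3_0013631, zebrafish identifier ENSDARG00000037946) had 243 to 606 CPM in the 5 brains of 5 weeks and 572 to 1960 CPM in those of 27 weeks. At 12 weeks it had 508, 159 and 943 CPM in JM104, JM105 and JM113 but 0.574 and 0.735 in JM107 and JM109. At 20 weeks 3 brains had 410 to 743 CPM, and JM84 and JM86 had 20.1 and 8.92. At 39 weeks it had 436 CPM in JM12 and 0.693, 0.813, 0.879 and 0.792 CPM in JM1, JM13, JM15 and JM18. Both levels of the oldest brains had already occurred at 12 weeks.

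Rank 2 (contig Nofu_gene_3_0007161, zebrafish identifier ENSDARG00000038185) followed the same brains. It had 64.1 to 430 CPM at 5 weeks and 396 to 1171 CPM at 27 weeks. It had 0.0637 and 0.138 CPM in JM107 and JM109 against 270 to 1040 in the other 12-week brains. At 39 weeks it had 0.126, 0.217, 1.09 and 0.0834 CPM in 4 brains and 2943 CPM in JM12, the highest of all 25. Because of that brain its arithmetic mean at 39 weeks was 589 ± 1316 CPM, above the 267 ± 148 of 5 weeks, and its fitted difference was -0.30 (standard error 1.71) against 27 weeks and 1.2 (standard error 1.74) against 5 weeks. The rule, which averages logarithms, ranked it second, and without JM12 the fitted difference against 5 weeks was -9.29.

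The other 4 contigs of the group showed the pattern at lower levels. Rank 3 had 16.7 CPM in JM12 and 0.0417 to 0.189 CPM in the remaining 39-week brains, and rank 4 had 4.52 CPM and 0 to 0.126 CPM. Ranks 5 and 11 had 193 and 38.1 CPM in JM12, against 4.12 to 6.05 and 1.36 to 2.14 in the others. Their arithmetic means at 39 weeks, 42.7 ± 84 and 9 ± 16.3 CPM, were above the 41.5 ± 19.5 and 8.12 ± 2.53 of 5 weeks. Between pairs of these 6 contigs r was 0.86 to 0.96 after the age means were subtracted. In the mean over the group, JM107, JM109, JM84 and JM86 lay 4.84, 4.69, 3.41 and 3.11 log2 units below the mean of the earlier libraries, and 39-week brains JM1, JM13, JM15 and JM18 lay 4.48 to 4.82 below it. None of the 6 was called between any 2 of the earlier ages, and 5 of the 6 were called in no comparison with 39 weeks, the exception being rank 4 against 5 and 12 weeks. With only 6 contigs, these counts are not read against the shares of all contigs called. Counts near 0 rest on few reads, and the fitted differences of these contigs depend on JM12.

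Group 6, with 4 members, had the highest median level of the groups, 143 CPM. Rank 6, which had the largest difference in it, had 321 to 447 CPM at 5 weeks, 194 to 409 at 12, 87.4 to 296 at 20 and 93.6 to 244 at 27 weeks. At 39 weeks it had 26.1, 66.6, 92.7, 40.5 and 112 CPM. In 3 of the 5 oldest brains it was below every earlier brain, while JM13 overlapped 20 weeks, and JM18 both 20 and 27 weeks. Its fitted difference was -1.30 (standard error 0.34) against 27 weeks and -2.44 (standard error 0.35) against 5 weeks.

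Among the 31 members in no group was rank 12, which was highest at 27 weeks. It had 645 to 1594 CPM at 27 weeks and 283, 259, 280, 358 and 298 CPM at 39 weeks, the narrowest range of the 5 ages. A single earlier brain, JM79 of 20 weeks at 268 CPM, lay within the range of the oldest. Means were 518 ± 127, 718 ± 118, 583 ± 319 and 1133 ± 383 CPM at the earlier ages and 296 ± 37.6 at 39 weeks, and the fitted difference against 27 weeks was -1.92 (standard error 0.27). Ranks 8 and 10 had wide ranges, of 1.24 to 12.9 and 13.3 to 54.1 CPM at 39 weeks against 3.30 to 32.7 and 19.7 to 113 CPM before.

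**Figure D5:**
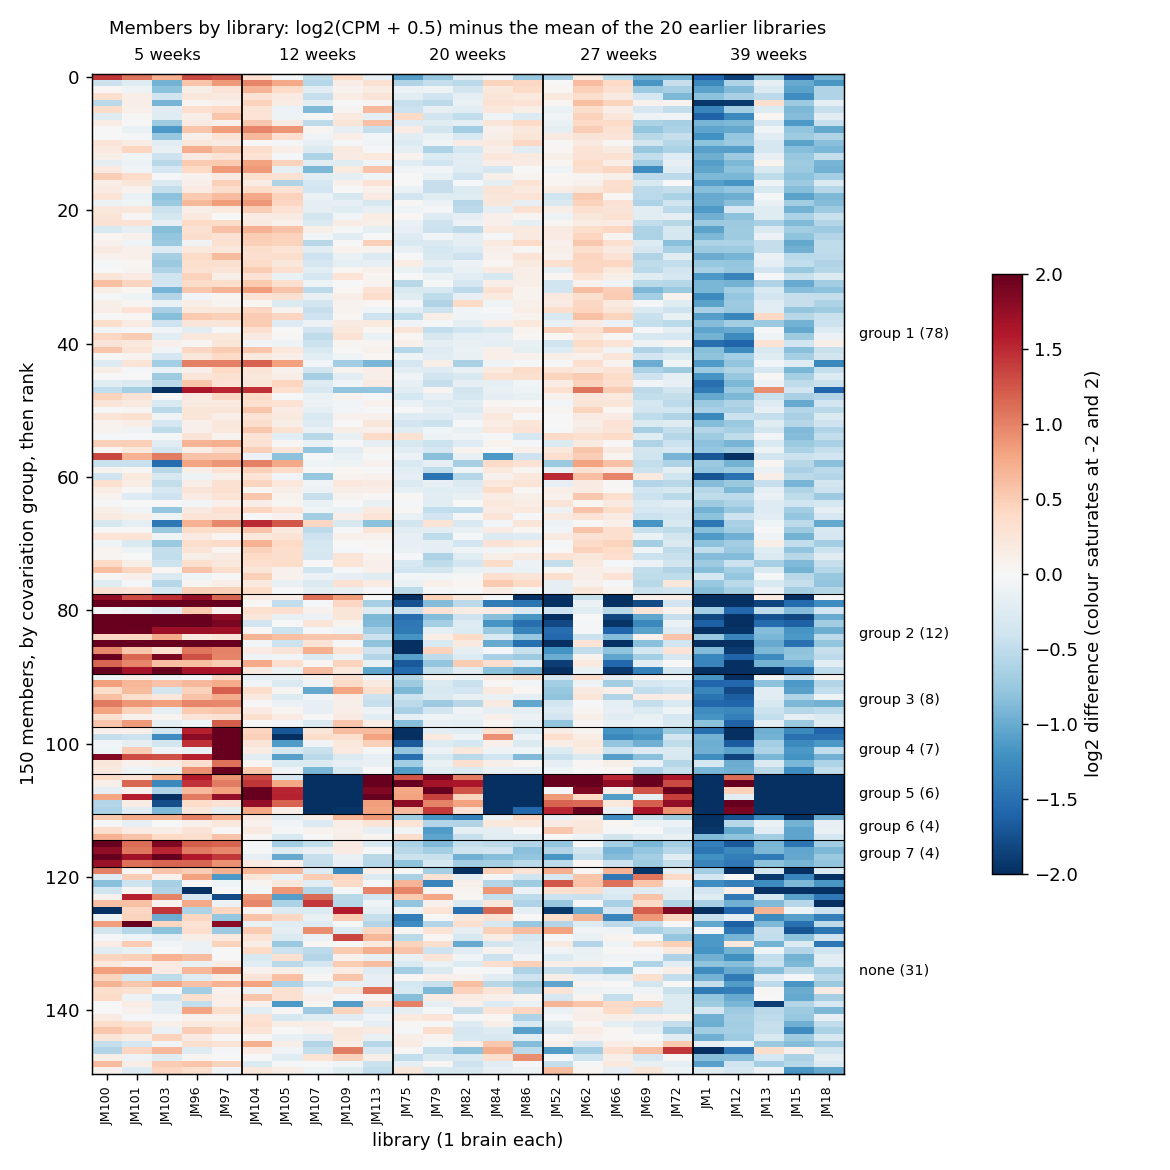
Rows are the 150 members in their covariation groups, columns the 25 libraries by age, and colour is log2(CPM + 0.5) minus the mean of the 20 earlier libraries, saturating at -2 and 2. Group 1 is pale until 39 weeks and palest there in JM13, groups 2 and 7 are high at 5 weeks, group 4 in JM97, and group 5 differs between brains of the same age.

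The members were less abundant than other contigs, with a median level of 22.9 CPM against 36.6 in eligible contigs. The median contig length, taken from counts and RPKM, was 2269 bases in the members and 2375 in eligible contigs. The contig was the best bidirectional hit of its zebrafish gene in 118 members (78.7%) and in 82.1% of eligible contigs. Another contig carried the same zebrafish identifier in 42 members (28%), against 24.6% of eligible contigs. In these, reads that match several copies may be missing from the authors' counts, which rest on unique reads, or divided. Ranks 20 and 126 shared an identifier, as did ranks 26 and 97, so the members stand for 148 zebrafish genes.

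Contigs with a name that followed each group most closely were looked up over all 25 libraries, as a description across libraries that share age and depth. The part of the study's annotation held here gave names for 1994 contigs only, and all those printed from it begin with A, B or C. Contigs without a name may follow the groups more closely. For group 1 the closest named contigs were BCR (r = 0.95), ARHGEF7A, an exchange factor for Rac and Cdc42 (r = 0.95), and BAI3, an adhesion receptor of synapses (r = 0.93). BAI3 had 97.9 ± 10.9 CPM at 5 weeks, 97.1 ± 8.53 at 20 weeks, 99.6 ± 15.1 at 27 weeks and 81.1 ± 9.21 in the oldest brains. For group 2 they were AGAP2, a GTPase-activating protein of neurons (r = 0.97), BX284638 (r = 0.95) and ACLYA, which makes cytosolic acetyl-CoA (r = 0.95). AGAP2 had 123 ± 10.0 CPM at 5 weeks, 85.8 ± 3.17 at 12 and 68.8 ± 12.9 at 39 weeks. Group 7 was followed by ALCAMB, a cell adhesion molecule (r = 0.96), and group 6 by B4GALT2, a galactosyltransferase (r = 0.87), ATF5 (1 OF 2), a stress transcription factor (r = 0.87), and APAF1, the core of the apoptosome (r = 0.85). The closest to group 3 was AFAP1 (r = 0.91). Likeness was lower for groups 4 and 5. The highest was ATRN at r = 0.75 for group 4, and ASCL1A, a proneural transcription factor, at r = 0.67 for group 5.

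Markers of other cells could be read for 22 named contigs of 8 cell type lists. The lists hold 20 microglial, 31 skeletal muscle and 15 pineal markers, for example, and most of these had no name here. Lists for pituitary, neurons, oligodendrocytes and endothelium had no named contig. They could not be read, neither in the members, group 5 included, nor outside them. Of the 22 named contigs, 20 were tested. Between 27 and 39 weeks edgeR called 0 of them, where 0.528% of all contigs were lower and 0.546% higher. At 39 weeks 1 was lower and 2 were higher than at 12 weeks (6.8% and 5.81% of all contigs), and 6 were lower and 6 higher than at 5 weeks (18.7% and 18.2%). The 1 lower than at 12 weeks was ALAS2 of the erythrocyte list, with a mean of 29.1 CPM at 5, 24.9 at 12 and 10 at 39 weeks. ALDH1A2 of the choroid plexus list was among the 6 lower than at 5 weeks, with 81.7 CPM at 5 and 50.3 at 39 weeks. The 5 named microglial contigs (AIF1, AIF1L, APOEB, C1QB and C1QC) summed to 796 to 1599 CPM at 39 weeks and 431 to 1002 CPM before, most of it APOEB, with a mean of 325 CPM at 5, 584 at 27 and 1019 at 39 weeks. AIF1L had 109 CPM at 5 weeks and 86.4 in the oldest brains, and C1QB 7.67 and 8.83 CPM. AIF1 had 3.65 and 11.2 CPM at these ages, and C1QC 5.78 and 16.7 CPM. Of the 5 microglial contigs, 3 were called higher and 1 lower at 39 than at 5 weeks. The 6 of skeletal muscle summed to 113 to 212 CPM at 39 weeks and 104 to 587 before, and the 3 of the pineal to 4.07 to 5.98 and 1.33 to 6.78 CPM. The part of such cells in the members' levels was not tested.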

How the data were processed

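Whole-brain RNA from 25 male fish was measured, 5 per age. According to the study's methods, animals were killed at a fixed morning hour in a fasted state, libraries were made with a TruSeq kit and sequenced as single reads, and the authors aligned unique reads to transcript contigs with Bowtie. The deposited counts are whole-number reads per contig without normalization, and the deposited RPKM values are the same counts per contig length and library total, used here for contig length and names only. Besides Bowtie, TopHat2 2.0.6, featureCounts 1.4.3-p1 and CASAVA stand in the submitters' processing notes, with no role given. Reads carry no molecular identifier, so that copies from PCR are counted and counting error understates the real error.

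CPM was the count divided by the library total. Tests used edgeR 4.0.16 (quasi-likelihood test, TMM, its filter on low counts, all ages in 1 model without covariates) under R 4.3.3 on the counts of 18228 contigs, of which 16484 were tested, with a Benjamini-Hochberg adjusted p under 0.05 as a call. DESeq2 1.42.0, other size factors, no filter, a w0w1 factor, omission of the libraries so marked, other settings of the rule and each library left out were alternatives. The steps were tested on simulated data. Python 3.11.15, NumPy 2.4.6, pandas 2.3.3, SciPy 1.17.1 and matplotlib 3.10.9 were used. Values at an age are spread between separate fish.

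The members and the gene lists were chosen with earlier results of these data known. Members to be named were those of largest difference, those that do not overlap, those of gene lists and those at the limit, where a source gives a name. Of the members, 0 matched the reference gene table, and 1 was named in the supplementary methods. The held part of the study's annotation table gave 1999 best-hit names, of which 1994 were paired with a contig by their shares of RPKM over the ages, to within 3e-06, and all of these lie outside the rule by identifier number. Gene lists for clock, stress, lipid, synaptic and other genes could therefore not be read in the members. Of these, only the clock list is used here, for named contigs outside the members. Contigs printed by name besides mex3a, and the covariation groups, were chosen after their values were seen. A later pair of tables that does not carry the contig identifiers was not used.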

Additional observations from a re-analysis of the deposited data

Results flagged for a closer look

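Each of 23 values described above (15 contigs, the median over members and 7 group means) was examined for a brain set apart from the other 4 of its age by Dixon's test, 115 sets of 5 in all. In 16 sets a brain stood apart. Chance alone flags about 1 in 20 of independent sets, but contigs of 1 group vary together and enter again in its mean. The number of sets is therefore not read against that share. Values are log2(CPM + 0.5) for contigs and log2 differences from earlier libraries for groups.

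Brain JM12 of 39 weeks stood high in the 6 contigs of group 5. Rank 1 had 8.77 against 0.25 to 0.46 in the other 4 brains, rank 2 had 11.52 against -0.78 to 0.67, and rank 3 had 4.11 against -0.88 to -0.54. Rank 4 had 2.33 against -1 to -0.68, rank 5 had 7.60 against 2.21 to 2.71, and rank 11 had 5.27 against 0.89 to 1.4. The mean of group 5 was 1.59 in JM12 and -4.82 to -4.48 in the others. JM12 carried the w0w1 mark. In the other marked libraries the mean of group 5 was 0.89 in JM96, 0.80 in JM105, -4.84 in JM107, -3.11 in JM86 and 1.41 in JM69. Unmarked libraries also lay at both levels, as JM104 at 1.75 and JM109 at -4.69. The part of the mark in these values was not tested.

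Group 4 was set apart in other brains. Rank 7 had 3.48 in JM105 of 12 weeks against 5.42 to 5.80, 2.56 in JM75 of 20 weeks against 4.87 to 5.49, and 1.8 in JM12 of 39 weeks against 3.59 to 4.19. Rank 9 had -0.12 in JM105 against 2.24 to 2.71, and the mean of group 4 was -1.50 in JM75 against -0.25 to 0.12.

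Brain JM103 of 5 weeks was low in 3 contigs, with -0.07 against 3.32 to 4.29 in rank 4, 3.58 against 4.04 to 4.14 in rank 55 and 4.23 against 4.97 to 5.21 in rank 70. JM107 of 12 weeks had 3.45 in rank 55 against 3.83 to 3.93.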

How the results depend on the processing

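When the rule was run with other settings, 98 of the 150 members were chosen again with the median in place of the mean per age, and 117 to 147 when 1 library was left out. At a minimum mean of 20 CPM 84 stayed. That number only counts the members at or above this level, since a higher minimum removes contigs and displaces no others. A total of 32 members were kept under all settings of the rule, the higher minimum included, and 61 in every choice without 1 library. Of the first 12, leaving aside those under the higher minimum, rank 8 was lost without the 6 marked libraries and rank 9 in choices without 1 library. With TMM-normalized CPM the median of each left-out 39-week brain moved by less than the spread among these brains.

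Counts of members called lower at 39 weeks moved most. Without the marked libraries they were 43 against 12 weeks, 0 against 20 and 4 against 27 weeks, with DESeq2 41 against 20 and 59 against 27 weeks, and with the mark as a factor 3 and 9. Without a filter the count against 20 weeks was 3. Without 1 library the ranges were 97 to 129 against 5 weeks, 62 to 113 against 12, 0 to 20 against 20 and 1 to 68 against 27 weeks. Before 39 weeks, members lower than at 5 weeks numbered 20 to 29 at 12 weeks, 31 to 42 at 20 and 32 to 49 at 27 weeks without 1 library, and 16 at 12 weeks without the marked libraries. Members higher than at 5 weeks numbered 2 at both 12 and 27 weeks without the marked libraries, and 0 to 1, 0 to 1 and 1 to 3 at 12, 20 and 27 weeks without 1 library. Also without 1 library, 0 to 1 were higher at 27 than at 20 weeks, and DESeq2 called 1 lower at 27 than at 12 weeks. The cause of these shifts was not tested, save that the alternatives without libraries hold fewer samples. Except for DESeq2 against 20 and 27 weeks, no share of all contigs was set beside these counts. Nothing about the members is read from them.

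The fitted difference of rank 2 changed sign. Against 5, 12 and 20 weeks it was -0.47, -1.12 and -1.78 with the mark as a factor and -9.05, -10.21 and -10.52 without the marked libraries. Without 1 library it ranged from -9.29 to 1.52 against 5 weeks, -9.71 to 1.79 against 12, -10.20 to 1.23 against 20 and -10.79 to 0.02 against 27 weeks. No paired analysis was possible because replicates are single fish with no number shared between ages. The comparison with the later count table was not run.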

Other observations

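Contigs with a name were outside the rule by their identifier number, but 10 of the 1477 that met its other conditions passed the same limit. They were picked for their values, which are given as a description. C1ORF51 (1 OF 2), in mammals the clock repressor CIART, had 31.8 ± 2.17, 36.4 ± 3.89, 35.3 ± 18.0 and 34.1 ± 7.17 CPM from 5 to 27 weeks and 14.9 ± 6.59 at 39 weeks (SD, n = 5), with 6.61 to 22.8 CPM in the oldest brains and 8.12 to 54.2 in earlier ones. It was level before the last age, though the ranges overlapped. Of the 52 names on the clock list, 5 had a named contig that was tested. EdgeR called 0 of these lower and 1 higher at 39 than at 27 weeks (0.528% and 0.546% of all contigs). Against 12 weeks, 1 was lower and 2 were higher (6.8% and 5.81%). BNC2, a zinc finger protein, had 27.2 ± 7.74 CPM at 5 weeks, 18.9 ± 4.75 at 27 and 11.3 ± 2.24 at 39 weeks. BCL6B, a transcriptional repressor, had 28.1 ± 5.02, 12.9 ± 4.34 and 7.34 ± 3.24 CPM at these ages.

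ARHGEF12 (2 OF 2) had 72.2 ± 14.8, 83.3 ± 12.1, 74.9 ± 11.9 and 76.3 ± 19.6 CPM before and 52.2 ± 7.74 at 39 weeks. BCL11B (2 OF 2), a transcription factor of projection neurons in the mouse, had 37.9 ± 4.13 CPM at 5 weeks, 26.4 ± 7.17 at 27 and 18.8 ± 2.52 at 39 weeks. ANLN, a scaffold of the cytokinetic ring, was the steepest early, with 22.6 ± 9.34 CPM at 5 weeks and 5.30 ± 2.53 at 12. It had 3.39 ± 2.26 at 20, 7.77 ± 3.50 at 27 and 2.19 ± 1.25 CPM at 39 weeks. The oldest brains, at 0.99 to 3.96 CPM, overlapped earlier ones, the lowest of which had 0.989 CPM. The other 4 were AFAP1L2, ABHD2 (1 OF 2), AGAP005884 and BX511256, whose means at 39 weeks were 18.7, 24.6, 29.0 and 26.1 CPM. In copies marked as 1 of several, reads that match more than 1 copy may be missing or divided.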
